A study of Mus musculus with 47 samples.

Results

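The cyclins and cyclin-dependent kinases of the cell cycle were described in mouse B cell lymphomas that had or had not been driven into senescence by a DNA-damaging drug. The set comprised 10 genes (Ccnd1, Ccnd2, Ccnd3, Ccne1, Ccne2, Ccna2, Ccnb1, Ccnb2, Cdk1 and Cdk2), taken by exact gene symbol from the array's platform annotation. A probe set with the symbol to itself was found for 9 of the 10, with 22 probe sets in all, out of 18194 genes on the array. The level of Ccnb1 was not analysed here, and only its promoter was searched. Each gene was read from its brightest probe set, and the others served as a check.

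All cells were primary lymphoma cells of Emu-myc mice, in which c-Myc is expressed in the B cell lineage. All carried a retrovirus expressing the antiapoptotic protein Bcl2, with 48 h of selection. They were grown on NIH 3T3 fibroblasts, gamma-irradiated with 20 Gy, which serve as feeder cells. ADR cultures received 0.05 µg/ml Adriamycin (doxorubicin, which damages DNA) for 5 days, and native cultures were left untreated. WT lymphomas had intact Suv39h1, a methyltransferase of histone H3 lysine 9 found in silenced chromatin, and 14 were measured as WT ADR and WT native. Lymphomas labelled Suv39h1-, deficient in this enzyme, were measured as Suv39h1- ADR and Suv39h1- native in 5 cases. A further 3 cultures, labelled Suv39h1- plus Suv39h1ER (a name for Suv39h1 joined to an estrogen receptor domain), were measured under ADR with 4OHT (4-hydroxytamoxifen, the ligand of that domain), under ADR alone, and native. No array had 4OHT without ADR or without Suv39h1ER, so the effect of the ligand itself cannot be told apart from that of the fusion protein, and the labels do not state its dose or time. SuvER-5043 and SuvER-4936 share numbers with a WT and a Suv39h1- lymphoma, but the labels do not say whether they derive from them. The labels call WT ADR and Suv39h1ER ADR 4OHT cells senescent and all the other groups non-senescent. Each lymphoma or culture gave 1 array per treatment, 47 arrays in all. The drug was given in culture at 1 dose and 1 time, so no earlier time was seen.

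Cyclins bind cyclin-dependent kinases and switch them on, and each class is made and destroyed at its own stage of the cycle. D cyclins (Ccnd1, Ccnd2, Ccnd3) answer growth signals and with Cdk4 or Cdk6 start the phosphorylation of the retinoblastoma protein, which frees E2F transcription factors. E cyclins (Ccne1, Ccne2) with Cdk2 drive entry into DNA synthesis and are themselves E2F targets. Cyclin A (Ccna2) serves S phase and G2, and B cyclins with Cdk1 drive mitosis. In cells that leave the cycle, DREAM (a complex of a pocket protein, E2F4 and MuvB) represses many genes of the later stages.

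Values are the authors' log2 levels after robust multi-array averaging (RMA), so a difference of 1 is a doubling of the array signal, and levels of different genes are not compared. Array medians lay between 4.07 and 4.43, the lowest on the array of Suv39h1- lymphoma 1032 under ADR. The 3′ minus 5′ signal of the Gapdh control, a sign of RNA quality, was 0.91 on the WT ADR array of lymphoma 1570 and -0.02 on its native array. Over the 47 arrays, the medians of 11 B cell markers ran from 5.02 (Pax5) to 11.4 (Blnk) and those of 8 T cell markers from 3.25 (Trat1) to 7.31 (Cd2). Pax5, a defining factor of B cells, lay between 4.15 and 5.49, close to the array medians, and the B cell markers Ms4a1 and Blk had lowest values of 4.09 and 4.28. These markers are named here for their values. Probe sets naming Suv39h1 alone were not analysed here, so its own level did not check the genotype labels. Suv39h1- lymphoma 4936 went against the other 4 Suv39h1- lymphomas, with the lowest native level of 7 of the 9 genes and higher levels of Ccna2, Ccnb2 and Cdk1 under ADR, and fold changes of the 9 genes over Suv39h1- lymphomas are also given without it. The lymphoma numbers set replicates apart, but the arrays of WT 2949, 5043, 5766 and 6054 and those of Suv39h1- 7890 and 9250 resembled each other in earlier work on these data. Averaging the alike ones leaves 11 WT and 4 Suv39h1- lymphomas.

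**Figure D1:**
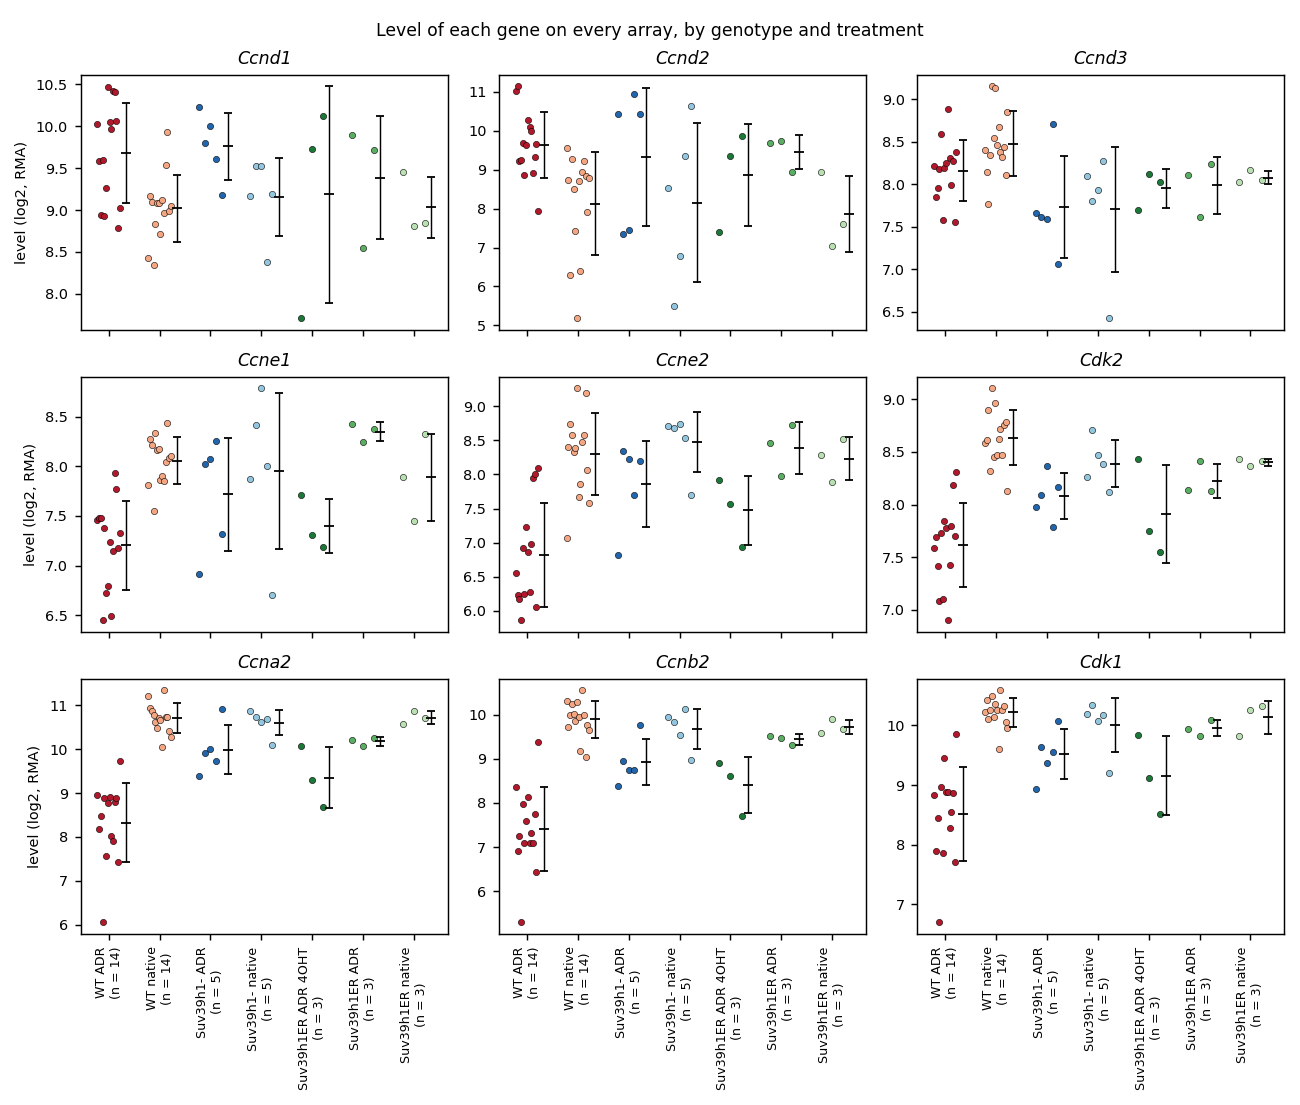
Log2 level of each gene on every array (vertical axis) in the 7 groups (horizontal axis); points are arrays, and the bars beside them show the mean and SD. Ccna2 is the gene whose 14 WT ADR values, 6.06 to 9.73, all lie below the 14 WT native values, 10.1 to 11.3.

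Promoters are shown because genes of the later stages moved together under ADR. RefSeq promoters on GRCm38.p6, from 250 bases before to 50 after a start site, were matched by symbol for 6 of the 10 genes, Ccnd3 with 2 starts. Ccnd1, Ccnd2, Ccne2 and Ccna2 had no entry. Those of Ccnb2, Cdk1, Cdk2 and Ccne1 are printed 5′ to 3′ on the gene's strand. Capitals mark the letters found by a search of both strands for 3 kinds of motif. The cell cycle genes homology region (CHR), which MuvB complexes bind, was searched as TTTGAA and, in its other common form, as TTCGAA. The box bound by NF-Y was searched as CCAAT. E2F sites were searched as TTCCCGC and, in further forms known to bind E2F, as TTGGCGC and separately, by the same rule, as TTCGCGC. No motif overlapped another in the printed windows. The E box of Myc, CACGTG, was searched too and was found in none of these windows.
Ccnb2 (chr9:70421505-70421804, minus strand): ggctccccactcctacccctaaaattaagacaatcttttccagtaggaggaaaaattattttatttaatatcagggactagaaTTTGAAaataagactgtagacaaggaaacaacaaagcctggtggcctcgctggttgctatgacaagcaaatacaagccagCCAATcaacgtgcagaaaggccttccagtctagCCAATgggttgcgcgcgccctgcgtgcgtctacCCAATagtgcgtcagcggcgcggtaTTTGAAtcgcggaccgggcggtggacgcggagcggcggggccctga
Cdk1 (chr10:69352863-69353162, minus strand): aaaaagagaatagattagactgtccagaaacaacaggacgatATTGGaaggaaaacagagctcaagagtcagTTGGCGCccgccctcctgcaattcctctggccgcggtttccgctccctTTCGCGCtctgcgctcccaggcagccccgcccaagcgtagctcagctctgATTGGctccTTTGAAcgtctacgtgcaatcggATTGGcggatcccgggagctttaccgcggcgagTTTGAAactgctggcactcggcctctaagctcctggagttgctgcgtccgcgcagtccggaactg
Cdk2 (chr10:128705002-128705301, minus strand): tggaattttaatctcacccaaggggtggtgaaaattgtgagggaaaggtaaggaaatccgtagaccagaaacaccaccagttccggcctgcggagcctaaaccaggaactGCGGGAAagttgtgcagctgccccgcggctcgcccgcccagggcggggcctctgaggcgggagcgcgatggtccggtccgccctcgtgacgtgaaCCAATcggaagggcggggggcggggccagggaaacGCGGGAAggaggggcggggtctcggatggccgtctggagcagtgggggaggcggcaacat
Ccne1 (chr7:38107441-38107740, minus strand): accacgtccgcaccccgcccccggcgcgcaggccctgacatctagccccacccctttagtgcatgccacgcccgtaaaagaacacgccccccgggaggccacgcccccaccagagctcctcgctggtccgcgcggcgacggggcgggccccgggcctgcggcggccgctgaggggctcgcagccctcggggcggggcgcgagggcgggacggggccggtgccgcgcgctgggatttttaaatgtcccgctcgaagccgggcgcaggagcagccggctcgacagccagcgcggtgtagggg
The Ccnb2 window held 2 copies of TTTGAA, whose first bases lie at -167 and 5 from the start, 3 of CCAAT at -87, -54 and -21, and no E2F letters. The Cdk1 window held 2 copies of TTTGAA at -71 and -15, 3 of CCAAT at -208, -80 and -48, and 2 E2F matches at -178 and -130. The Cdk2 window held no CHR letters, 1 CCAAT at -45 and 2 E2F matches at -140 and -10. None of the motifs was found in the Ccne1 window. Ccnd3 had 1 CCAAT in 1 of its 2 windows. The Ccnb1 window, not printed, held no CHR letters, 2 CCAAT at -99 and -67 and 1 E2F match at -102. The CHR letters of Ccnb2 and Cdk1 were thus not shared by this other B cyclin. Of 32851 promoters of this length on chromosomes other than 18, CHR letters were in 19.2%, CCAAT in 37.4%, E2F letters in 8.07% and CACGTG in 7.15%. Both CHR and CCAAT were in 7.53% of them, and at least 2 CHR with at least 3 CCAAT in 29 promoters. That last cutoff was taken from the Ccnb2 and Cdk1 windows themselves, so its count is no test of them. A match is a run of letters and not a measured binding site.

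In WT lymphomas under ADR, the genes of S phase and mitosis fell most, the E cyclins and Cdk2 fell less, and the D cyclins divided, with Ccnd1 and Ccnd2 higher and Ccnd3 slightly lower. Of the 9 genes measured, 7 were called lower and 2 higher (limma, Benjamini-Hochberg adjusted p under 0.05 over 18194 genes), where 14.1% of all genes were called lower and 16.1% higher. The median change of the 9 genes was -1.02 on the log2 scale, beside -0.0002 for all genes. These calls were the same when any 1 of the 14 lymphomas was left out. In bulk RNA, fewer cells of a type and less RNA per cell cannot be told apart.

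Ccnb2, a B cyclin of mitosis, had levels of 5.30, 7.29 and 9.38 (lowest, median and highest) in WT ADR cultures, against 9.04, 9.97 and 10.5 in WT native cultures. All 14 lymphomas were lower under ADR, and the groups overlapped through the WT ADR array of lymphoma 9584. The log2 change was -2.49 (SE 0.24, n = 14, limma adjusted p = 7.85e-08), a 5.61-fold fall. Ccna2, the cyclin of S phase and G2, had 6.06, 8.62 and 9.73 in WT ADR cultures, against 10.1, 10.7 and 11.3 in WT native cultures. It was the one gene of the 9 whose groups did not overlap. Its change was -2.37 (SE 0.23, limma adjusted p = 5.63e-08), a 5.18-fold fall. Cdk1, the kinase that B cyclins switch on, had 6.70, 8.69 and 9.85 in WT ADR cultures, against 9.61, 10.3 and 10.6 in WT native cultures. It was lower in 14 of 14 lymphomas, by -1.71 (SE 0.21, limma adjusted p = 1.00e-06), with overlapping groups.

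Ccne2, the E cyclin with the larger fall, had 5.86, 6.71 and 8.09 in WT ADR cultures, against 7.07, 8.39 and 9.26 in WT native cultures. It was lower in 13 of 14 lymphomas, by -1.48 (SE 0.21, limma adjusted p = 7.26e-06). Ccne1 had 6.45, 7.28 and 7.93 in WT ADR cultures, against 7.55, 8.09 and 8.44 in WT native cultures. It was lower in 14 of 14, by -0.85 (SE 0.12, limma adjusted p = 4.76e-06). Cdk2, the partner of E and A cyclins, had 6.90, 7.70 and 8.31 in WT ADR cultures, against 8.13, 8.62 and 9.11 in WT native cultures. It was lower in 13 of 14 lymphomas, by -1.02 (SE 0.11, limma adjusted p = 3.36e-07). The groups of all 3 genes overlapped.

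Ccnd2, a D cyclin that B cells use in their response to growth signals, had 7.94, 9.64 and 11.1 in WT ADR cultures, against 5.19, 8.71 and 9.57 in WT native cultures. It was higher in 11 of 14 lymphomas, by 1.52 (SE 0.36, limma adjusted p = 0.00186), a 2.86-fold rise. Ccnd1, the D cyclin common in fibroblasts and epithelia and little used by normal B cells, had 8.79, 9.78 and 10.5 in WT ADR cultures, against 8.34, 9.06 and 9.93 in WT native cultures. It was higher in 11 of 14 lymphomas, by 0.66 (SE 0.21, limma adjusted p = 0.0198). Ccnd3, a D cyclin of lymphoid cells, had 7.55, 8.21 and 8.88 in WT ADR cultures, against 7.77, 8.42 and 9.15 in WT native cultures. It was lower in 12 of 14, by -0.32 (SE 0.10, limma adjusted p = 0.0167). The D cyclin groups overlapped over most of their range, and all 3 calls depended on the fit. Without the pairing of arrays by lymphoma, Ccnd3 had a limma adjusted p of 0.148, and with alike lymphomas averaged Ccnd1 changed by 0.50 (limma adjusted p = 0.152). With the change of fibroblast markers as a covariate, described further on, none of the 3 was called, and the Ccnd2 change was 0.13 (limma adjusted p = 0.924).

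In WT ADR against WT native, the other probe sets of each gene gave changes of the same direction with 1 exception. All 7 probe sets of Ccnd2 had changes above 0 in WT lymphomas, from 0.58 to 1.52, and the 5 brightest passed when all probe sets were tested together. Of the 3 Ccnd1 probe sets, the changes were 0.66 and 0.67, both called, and 0.23, not called (limma adjusted p = 0.565). The dimmer Ccnd3 probe sets changed by -0.22 and -0.32, and neither was called (limma adjusted p = 0.0901 and 0.102). The second Ccna2 probe set changed by -2.11 and the second Ccne1 probe set by -0.87. The brightest Ccne1 probe set is of the kind whose probes can also match other transcripts, so the second one is its check. The second Cdk2 probe set, at a mean level of 2.39, changed by 0.04 and was not called. In the other comparisons, probe sets of Ccnd1, Ccnd2, Ccnd3 and Cdk2 differed in sign for changes that were not called. For Ccnd3 the 3 probe sets gave 0.02, -0.38 and 0.50 in Suv39h1- ADR against native, and 0.43, 0.19 and -0.75 in WT ADR against Suv39h1- ADR.

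The WT lymphomas differed widely in how far these genes moved. Lymphoma 2949 had the deepest changes, with -4.72 for Ccna2, -4.94 for Ccnb2 and -3.56 for Cdk1. Lymphoma 9584 had the shallowest, with -0.54 for Ccna2, -0.27 for Ccnb2 and -0.11 for Cdk1, and its Ccne2 and Cdk2 changed by 0.51 and 0.18. Lymphomas 403 and 5560 had the largest changes of Ccnd2, 4.43 and 3.69.

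**Figure D2:**
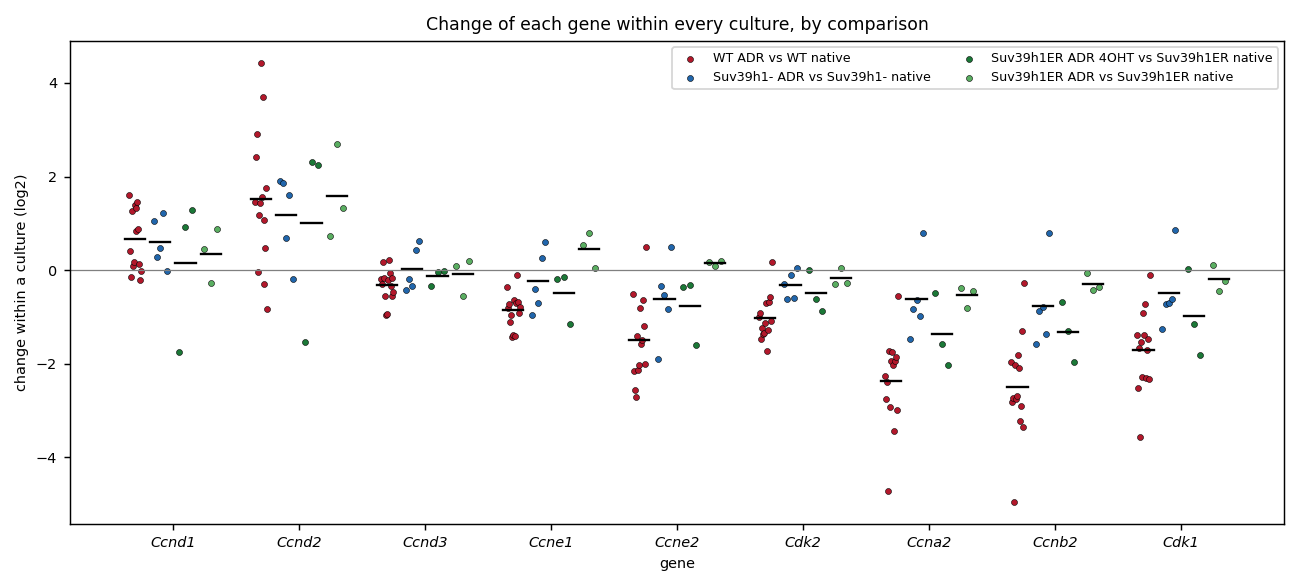
Within-culture log2 change of each gene (vertical axis) by gene (horizontal axis), with 1 point per lymphoma or culture and a bar at the mean; colours give 4 comparisons, each against the native arrays of the same genotype. All 14 WT points lie below 0 for Ccne1, Ccna2, Ccnb2 and Cdk1, while Ccnd2 runs from -0.83 to 4.43.

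The A and B cyclins (mean of Ccna2 and Ccnb2) changed by -2.43 ± 1.01 in WT lymphomas under ADR (SD, n = 14), and the 5 D and E cyclins by -0.10 ± 0.33. The difference between both classes was -2.33 ± 0.97 and below 0 in 14 of 14 lymphomas, from -4.28 in 2949 to -0.09 in 9584. The D and E mean near 0 joins opposite movements, since the 3 D cyclins changed by 0.62 ± 0.59 and the 2 E cyclins by -1.17 ± 0.57. In Suv39h1- lymphomas the A and B mean changed by -0.69 ± 0.89 and the D and E mean by 0.19 ± 0.26 (SD, n = 5), a difference of -0.88 ± 0.87 that was below 0 in 4 of 5 and -1.22 without lymphoma 4936. In Suv39h1ER cultures the difference of the class means was -1.30 ± 1.34 for ADR 4OHT against native, with 2 of 3 below 0, and -0.91 ± 0.28 for ADR against native, with 3 of 3 below 0 (SD, n = 3 each). Without SuvER-4146 the ADR 4OHT against native value was -2.07. For ADR 4OHT against ADR the difference was -0.39 ± 1.10 (SD, n = 3), and it was -1.02 without SuvER-4146, -0.18 without SuvER-4936 and 0.0224 without SuvER-5043. These class means are descriptions with no test.

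**Figure D3:**
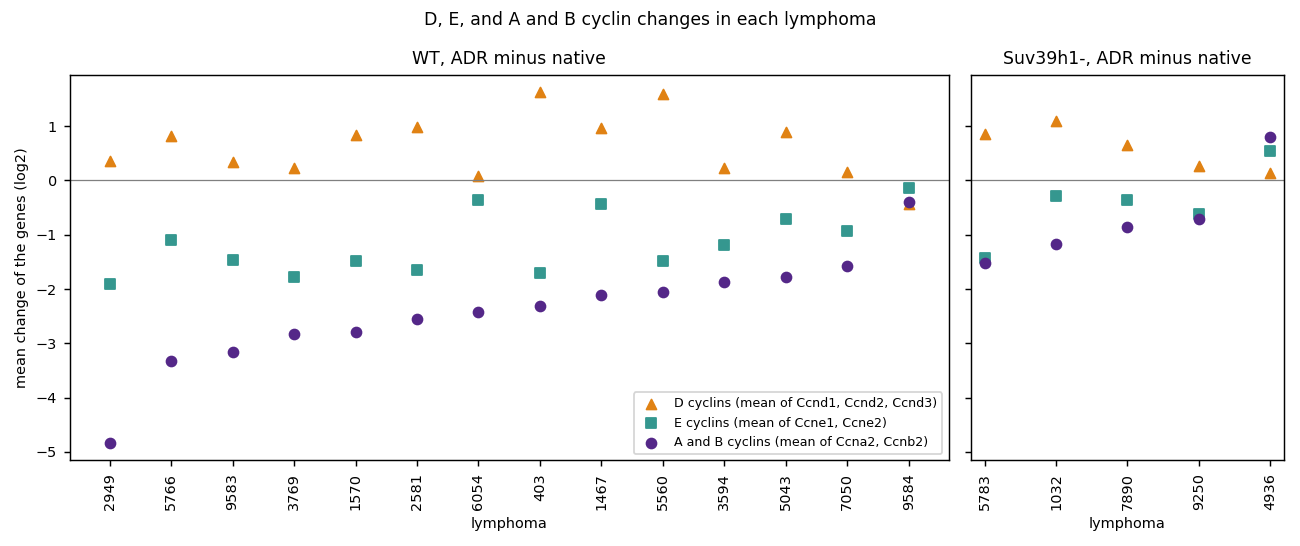
Mean log2 change (vertical axis) of the D, E, and A and B cyclins in each of the 14 WT (left) and 5 Suv39h1- (right) lymphomas, ordered by the A and B change; each symbol is 1 class in 1 lymphoma. The A and B symbol is the lowest of the 3 in 13 of 14 WT lymphomas, all but 9584, where the D symbol lies lower.

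The changes of the later-stage genes varied together from lymphoma to lymphoma. Over the 14 WT changes, 7 of the 36 gene pairs passed (Pearson, 100000 permutations, adjusted over 36 pairs), all with r above 0. The closest was Ccna2 with Ccnb2 (r = 0.925, Spearman rho = 0.837), then Ccna2 with Cdk1 (r = 0.922, rho = 0.771) and Ccnb2 with Cdk1 (r = 0.867, rho = 0.846), with permutation p-values of 4e-05, 2e-05 and 0.00011. Without the 2 lymphomas farthest from the median of the first gene, 2949 and 9584, these r were 0.741, 0.778 and 0.608. Ccne2 was the E cyclin that moved with them, at r of 0.768 with Ccnb2, 0.745 with Cdk2, 0.736 with Ccna2 and 0.677 with Cdk1, but none of these 4 passed by Spearman's rho (0.635, 0.587, 0.692 and 0.596) after adjustment. Without lymphomas 2949 and 9584 these 4 values of r were 0.488, 0.539, 0.448 and 0.314. No pair that includes a D cyclin passed, and the lowest r was -0.617 for Ccnd2 with Cdk2 (permutation p = 0.0185, adjusted 0.0833). All changes of a lymphoma come from the same pair of arrays.

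The 22 changes from native to ADR (14 WT, 5 Suv39h1- and 3 Suv39h1ER) were compared across genes, as a description across cultures. For each cyclin or kinase, the 3 genes outside the set with the most similar pattern were listed by Pearson's r. Ccna2 was followed by Cdca3 (r = 0.984), Cep55 (0.974) and Birc5 (0.970), which act in mitosis and cell division. Ccnb2 was followed by Nuf2 (0.974), a kinetochore protein, Kif23 (0.968), a motor of cytokinesis, and Cdca3 (0.967). Cdk1 was followed by Espl1 (0.975), the protease separase, Top2a (0.975), a DNA topoisomerase, and Sgo1 (0.974), which protects cohesin. Ccne2 was followed by E2f8 (0.942), Dtl (0.937) and Cdc6 (0.934), genes of S phase and replication licensing. The likeness was weaker for Cdk2, with Parp2 at 0.883, for Ccne1, with Mcph1 at 0.868, and for Ccnd2, with Neo1 at 0.864. It was weakest for Ccnd3, with Crlf3 at 0.795, and Ccnd1, with Lrrc58 at 0.689.

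Markers of the feeder cells moved with the WT treatment too. The mean of 26 fibroblast markers lay between 5.06 and 9.39 in WT ADR cultures, against 4.24 to 5.53 in WT native cultures, and rose in 13 of 14 lymphomas, by 1.92 ± 1.32 (SD, n = 14). The mean of 14 macrophage markers lay between 6.15 and 8.87 in WT ADR cultures, against 5.08 to 7.76 in WT native cultures, and was higher in 14 of 14. Of these lists, 24 of 26 fibroblast and 10 of 14 macrophage markers were called higher in WT ADR cultures. Among all genes, 14.1% were called lower and 16.1% higher. The smallest p-values were those of Timp2 (2.67), Fn1 (3.30) and Col1a2 (3.09) among fibroblast markers, and of Ms4a7 (2.69), Mpeg1 (1.76) and Adgre1 (2.18) among macrophage markers. Of 11 B cell markers, 4 were called lower and none higher, led by Cd22 (-1.43), Pou2af1 (-0.85) and Cd79a (-0.725), with list means of 7.68 to 10.1 in WT ADR cultures, against 8.70 to 9.49 in WT native cultures. The mean of 8 T cell markers lay between 4.68 and 5.35 in WT ADR cultures, against 4.79 to 5.36 in WT native cultures, and none was called, with Cd2 (-0.44), Cd4 (0.08) and Trat1 (-0.09) at the smallest p-values.

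The change of Ccnd2 ran with the change of the fibroblast markers over the 14 WT lymphomas (Pearson r = 0.645, permutation p = 0.0126, adjusted over 9 genes 0.0566, Spearman rho = 0.442, permutation p = 0.116). It rested on lymphomas 403 and 5560, without which r was 0.256. The same 2 lymphomas had the largest fibroblast marker changes, 4.34 and 3.93. In a fit with the fibroblast change as a covariate, the Ccnd2 change at no fibroblast change was 0.13 (SE 0.51, limma adjusted p = 0.924) and the Ccnd1 change was 0.82 (SE 0.30, limma adjusted p = 0.0882). Its slope per unit of fibroblast change passed for Ccnd2 (0.73, SE 0.22, limma adjusted p = 0.0311) and Ccne1 (-0.19, SE 0.06, limma adjusted p = 0.0447) and for none of the other 7 genes. Lymphomas 1467, 2949, 5043 and 1570 had the smallest fibroblast changes (-0.02, 0.50, 0.55 and 0.83). Their Ccnd2 changes were 1.46, -0.04, 1.57 and 2.41. Lymphomas 403 and 5560 are also in this fit, which was not repeated without them. In that fit Ccna2, Ccnb2 and Cdk1 stayed called, at -2.59, -2.54 and -2.10 (limma adjusted p = 0.00249, 0.00422 and 0.00298). Ccne1 and Cdk2 also stayed called, at -0.49 and -0.66 (limma adjusted p = 0.0383 and 0.0341), while Ccne2, at -1.02, and Ccnd3, at -0.23, were not (limma adjusted p = 0.0941 and 0.460). The change of Ccne1 ran against the fibroblast change (r = -0.654, permutation p = 0.0111, adjusted 0.0566, rho = -0.534, permutation p = 0.0525), with r = -0.413 without the same 2 lymphomas. Ccnd1 gave r = -0.170 (permutation p = 0.558, adjusted 0.690), and -0.589 without them. With the macrophage markers in place of the fibroblast markers, an alternative chosen after seeing the data, the 9 correlations lay between -0.270 and 0.262, each with an adjusted permutation p of 0.782. The part of the feeder and macrophage markers in the changes of Ccnd1 and Ccnd2 was otherwise not tested.

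**Figure D4:**
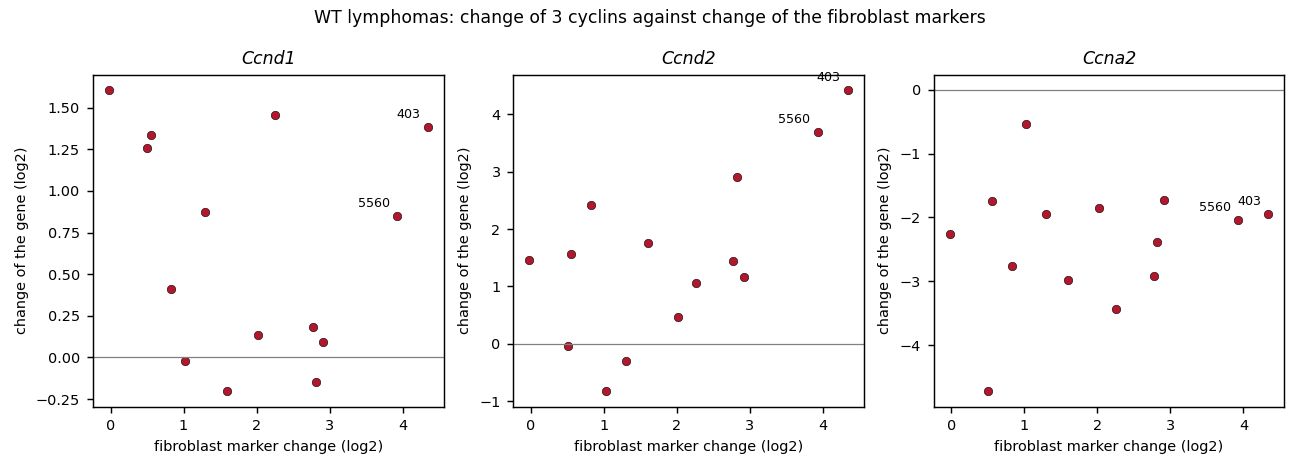
Log2 change of Ccnd1, Ccnd2 and Ccna2 (vertical axes) against the mean log2 change of 26 fibroblast markers (horizontal axes), ADR minus native, with 1 point per WT lymphoma (n = 14). Lymphomas 403 and 5560 lie at the far right of all 3 panels and at the top of the Ccnd2 panel, and the lowest Ccna2 point, -4.72, has a fibroblast change of 0.50.

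The rest of the machinery was counted in lists that hold none of the 9 genes. The counts for WT ADR against WT native stand beside 14.1% of all genes called lower and 16.1% called higher. All 6 activators of the kinases were called lower in WT ADR cultures, among them the subunits Cks2 (-1.26, SE 0.13, limma adjusted p = 1.15e-07) and Cks1b (-0.96) and the phosphatase Cdc25c (-1.58), which removes the inhibitory phosphates of Cdk1. Wee1, the kinase that adds such a phosphate, was lower by -0.85 (SE 0.11, limma adjusted p = 1.54e-06), while its relative Pkmyt1 (-0.13) was not called. Of 14 genes of cyclin destruction, 9 were called lower and none higher, with Ube2c, the ubiquitin-conjugating enzyme of the anaphase-promoting complex, at -2.15, its inhibitor Fbxo5 at -2.01 and Ube2s at -1.03. Of 11 pocket protein and E2F genes, 6 were lower and none higher, led by Rbl1 (p107, -1.34), E2f8 (-1.95) and E2f7 (-1.59), and of 7 genes of MuvB, Myb and Foxm1, 5 were lower and none higher, led by Mybl2 (-1.78), Lin9 (-1.14) and Foxm1 (-0.88). The median changes of these 4 lists were -1.11 for activators, -0.33 for destruction, -0.41 for pocket proteins and E2F, and -0.75 for MuvB, Myb and Foxm1.

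Other cyclins and kinases did not share one direction. Their counts, and those of the inhibitors, again stand beside 14.1% of all genes called lower and 16.1% called higher. Of 19 other cyclins, 4 were called lower and 1 higher. Ccnf (-1.41), an F-box protein of the cyclin family, and Ccnh (-0.60), of the Cdk-activating kinase, were lower, and Ccng1 (0.89), a p53 target, was higher. Of 16 other cyclin-dependent kinases, 3 were lower and 5 higher, with Cdk14 at 1.72 (SE 0.27, limma adjusted p = 2.02e-05), and Cdk8 (-0.32) and Cdk19 (-0.72), kinases of the Mediator complex, both lower. Cdk6, a partner of the D cyclins, was also called lower (-0.77, SE 0.17, limma adjusted p = 0.000838), and Cdk4, the other partner, had -0.25 and was not called (limma adjusted p = 0.0872). Both partners were picked for their role after their values were seen. Of 7 inhibitors, the p53 target Cdkn1a (p21) was higher by 1.11 (SE 0.20, limma adjusted p = 0.000118), Cdkn2d (-1.02) and Cdkn2c (-0.63) were lower, and 4 were not called.

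In Suv39h1- lymphomas under ADR, none of the 9 genes was called, nor any member of the lists above. Only 2 of 18194 genes were called there (0.011%), with 1885 at an unadjusted p under 0.05, so the count of 0 sits at the background. Ccna2 was 9.72, 10.91, 9.40, 9.90 and 10.00 in Suv39h1- ADR cultures of lymphomas 1032, 4936, 5783, 7890 and 9250, against 10.69, 10.10, 10.86, 10.74 and 10.63 in their native cultures. It was lower in 4 of 5, with lymphoma 4936 the exception, and changed by -0.62 (95% interval -1.40 to 0.16, limma adjusted p = 0.598). Ccnb2 was 8.75, 9.77, 8.38, 8.95 and 8.75 in Suv39h1- ADR cultures in the same order, against 10.12, 8.97, 9.96, 9.82 and 9.54 in native cultures. It changed by -0.76 (95% interval -1.60 to 0.08, limma adjusted p = 0.532), again with 4 of 5 lower. Cdk1 changed by -0.48 (95% interval -1.19 to 0.23) and Cdk2 by -0.31 (-0.70 to 0.08), with adjusted p-values of 0.670 and 0.595.

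The E cyclins changed by -0.62 (Ccne2, 95% interval -1.34 to 0.11, limma adjusted p = 0.569) and -0.24 (Ccne1, -0.64 to 0.17, limma adjusted p = 0.717) in Suv39h1- lymphomas. Ccnd2 was 10.95, 10.44, 10.43, 7.34 and 7.45 in Suv39h1- ADR cultures of lymphomas 1032, 4936, 5783, 7890 and 9250, against 9.35, 10.63, 8.52, 5.49 and 6.78 in native cultures. The spread between lymphomas was wide in both groups, and 4 of 5 were higher under ADR, by 1.17 on average (95% interval -0.07 to 2.40, limma adjusted p = 0.510). Ccnd1 changed by 0.61 (95% interval -0.13 to 1.34) and Ccnd3 by 0.02 (-0.33 to 0.37), with adjusted p-values of 0.584 and 0.980. Without lymphoma 4936 the changes were -0.97 for Ccna2, -1.15 for Ccnb2, -0.82 for Cdk1, -0.40 for Cdk2, -0.89 for Ccne2, -0.45 for Ccne1, 0.76 for Ccnd1, 1.51 for Ccnd2 and -0.13 for Ccnd3, and none was called (lowest limma adjusted p 0.239, for Ccnb2). The fibroblast marker mean changed by 0.23 ± 0.29 in these lymphomas (SD, n = 5).

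The difference between the WT and the Suv39h1- response was tested directly. None of the 9 genes passed, where 62 of 18194 genes did (0.341%) and 3424 had an unadjusted p under 0.05. The WT response minus the Suv39h1- response was -1.76 for Ccna2 (95% interval -2.66 to -0.85, limma adjusted p = 0.0642), -1.73 for Ccnb2 (-2.70 to -0.75, limma adjusted p = 0.0822) and -1.22 for Cdk1 (-2.05 to -0.40, limma adjusted p = 0.122). For Cdk2 it was -0.71 (limma adjusted p = 0.105), for Ccne2 -0.86 (0.257) and for Ccne1 -0.61 (0.158). The D cyclins differed by 0.05 for Ccnd1 (95% interval -0.80 to 0.91), 0.35 for Ccnd2 (-1.09 to 1.79) and -0.34 for Ccnd3 (-0.75 to 0.06). The A and B genes lay on both sides of the threshold by setting. Ccna2 passed without WT lymphoma 9584 (-1.90, limma adjusted p = 0.0291) or 2949 (-1.57, 0.0395), and Ccnb2 and Cdk2 passed without 9584 (-1.90 and -0.80, limma adjusted p = 0.0324 and 0.0328). Without Suv39h1- lymphoma 4936 the differences were -1.40 for Ccna2 (limma adjusted p = 0.195), -1.34 for Ccnb2, -0.89 for Cdk1, -0.62 for Cdk2, -0.59 for Ccne2 and -0.40 for Ccne1. Those of the D cyclins were then -0.10 for Ccnd1, 0.008 for Ccnd2 and -0.19 for Ccnd3.

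Between the genotypes under ADR, the A and B cyclins were lower in WT. Ccna2 averaged 8.33 ± 0.90 in WT ADR (SD, n = 14) and 9.99 ± 0.56 in Suv39h1- ADR cultures (SD, n = 5), a difference of -1.66 (SE 0.41, limma adjusted p = 0.0139). Ccnb2 averaged 7.41 ± 0.95 in WT ADR and 8.92 ± 0.52 in Suv39h1- ADR cultures, a difference of -1.51 (SE 0.43, limma adjusted p = 0.0260). These were 2 of 9 genes called lower, beside 6.30% of all genes. The next were Ccne2 (-1.04, limma adjusted p = 0.0624), Cdk1 (-1.004, 0.0670) and Cdk2 (-0.47, 0.0985). Which genes passed turned on single lymphomas: without Suv39h1- 4936 neither passed (Ccna2 -1.43, limma adjusted p = 0.0528, and Ccnb2 -1.30, 0.0841), with the other 7 genes between -0.95 (Ccne2) and 0.60 (Ccnd2), and Ccnb2 did not pass without 7890 (0.0588) or 9250 (0.0547). Ccne2 passed without WT 6054, 7050 or 9584 or Suv39h1- 5783 (adjusted p = 0.0415, 0.0393, 0.0346 and 0.0291), Cdk1 without WT 403 or 9584 (0.0481 and 0.0338), and Ccnd3, at 0.68, without Suv39h1- 1032 (0.0195).

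In the same comparison the cofactors Cks2 (-1.16, limma adjusted p = 0.00486) and Cks1b (-0.64, limma adjusted p = 0.0480) and the kinase Wee1 (-0.61, limma adjusted p = 0.0380) were lower in WT ADR cultures, and Cdkn1a was higher by 1.06 (limma adjusted p = 0.0361). Of the lists, 3 of 6 activators, 4 of 14 genes of cyclin destruction and 2 of 7 genes of MuvB, Myb and Foxm1 were called lower, and 2 genes of cyclin destruction and 1 of the MuvB list were called higher. Of 11 pocket protein and E2F genes 1 was lower and 2 were higher, of 16 other cyclin-dependent kinases 4 were lower, and of 19 other cyclins 2 were lower. Of all genes, 6.30% were called lower and 6.30% higher. The 18S ribosomal control signal, a sign of RNA quality or labelling, also differed by genotype, with medians of 7.68 in WT ADR and 8.57 in Suv39h1- ADR cultures. The Gapdh 3′ minus 5′ signal had medians of 0.11 in WT ADR and 0.305 in Suv39h1- ADR cultures. The part of both signals in these differences was not tested. The fibroblast list mean was 6.82 ± 1.23 in WT ADR and 5.28 ± 0.90 in Suv39h1- ADR cultures.

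Before treatment, none of the 9 genes was called between WT and Suv39h1- lymphomas, where 198 genes were (1.09%) and 1735 had an unadjusted p under 0.05. The intervals were narrow for Ccna2 (0.10, 95% interval -0.25 to 0.44), Cdk1 (0.22, -0.10 to 0.54) and Cdk2 (0.25, -0.03 to 0.52). Ccnd3 had the largest native difference, 8.48 ± 0.38 in WT native (SD, n = 14) and 7.70 ± 0.74 in Suv39h1- native cultures (SD, n = 5), which was 0.77 (SE 0.24, limma adjusted p = 0.177). Without Suv39h1- lymphoma 4936 it was 0.45, and the other 8 genes lay between -0.36 (Ccne2) and 0.59 (Ccnd2), none called. Ccnd2 could not be placed closely, at -0.03 with a 95% interval of -1.57 to 1.51. The 18S signal differed here as well, with medians of 7.69 in WT native and 8.38 in Suv39h1- native cultures.

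In the 3 Suv39h1ER cultures, none of the 9 genes was called in any comparison. Of all genes, 2.95% were called for ADR 4OHT against native, 0.126% for ADR against native and 0.143% for ADR 4OHT against ADR, with 2960, 2240 and 2268 genes at an unadjusted p under 0.05. Ccna2 was 10.08, 9.30 and 8.67 in the ADR 4OHT cultures SuvER-4146, SuvER-4936 and SuvER-5043, 10.20, 10.07 and 10.26 under ADR alone, and 10.57, 10.87 and 10.70 in native cultures. Every culture was lowest under ADR 4OHT and highest when native, and SuvER-4146 moved least. The change was -1.36 for ADR 4OHT against native (95% interval -2.37 to -0.36, limma adjusted p = 0.132), -0.54 for ADR against native (-1.54 to 0.46, 0.729) and -0.82 for ADR 4OHT against ADR (-1.83 to 0.18, 0.524).

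Ccnb2 was 8.91, 8.60 and 7.71 under ADR 4OHT in the same order, 9.52, 9.48 and 9.31 under ADR, and 9.59, 9.91 and 9.67 in native cultures. The ADR 4OHT values did not overlap the others, and the ADR values lay below all native ones. The change was -1.32 for ADR 4OHT against native (95% interval -2.40 to -0.24, limma adjusted p = 0.189), -0.29 for ADR against native (-1.37 to 0.79, 0.890) and -1.03 for ADR 4OHT against ADR (-2.11 to 0.05, 0.432). Cdk1 changed by -0.98 for ADR 4OHT against native (limma adjusted p = 0.268), with SuvER-4146 at 0.02, and by -0.18 for ADR against native (limma adjusted p = 0.923).

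Ccne1 lay above its native level under ADR alone and below it under ADR 4OHT in all 3 cultures. It was 7.71, 7.30 and 7.18 under ADR 4OHT, 8.42, 8.24 and 8.38 under ADR, and 7.89, 7.45 and 8.32 in native cultures. All 3 cultures were lower under ADR 4OHT than under ADR, with no overlap, by -0.95 (95% interval -1.47 to -0.43, limma adjusted p = 0.109). Against native, the change was -0.49 for ADR 4OHT (limma adjusted p = 0.347) and 0.46 for ADR (0.483). Ccne2 was 7.92, 7.57 and 6.93 under ADR 4OHT, 8.46, 7.97 and 8.72 under ADR, and 8.29, 7.89 and 8.52 in native cultures. It too was lower in 3 of 3 for ADR 4OHT against ADR, by -0.91 (95% interval -1.85 to 0.03, limma adjusted p = 0.422).

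The D cyclins of the Suv39h1ER cultures were set by SuvER-4146 under ADR 4OHT. Ccnd2 was 7.39, 9.35 and 9.86 under ADR 4OHT in SuvER-4146, SuvER-4936 and SuvER-5043, 9.67, 9.74 and 8.95 under ADR, and 8.93, 7.05 and 7.62 in native cultures. Under ADR all 3 were higher than native with no overlap, by 1.59 (95% interval -0.01 to 3.18, limma adjusted p = 0.408). Under ADR 4OHT against native the change was 1.00 (95% interval -0.59 to 2.60, limma adjusted p = 0.607), and without SuvER-4146 it was 2.28. Ccnd1 was 7.71, 9.73 and 10.12 under ADR 4OHT, 9.90, 8.54 and 9.72 under ADR, and 9.46, 8.81 and 8.84 in native cultures. Its change for ADR 4OHT against native was 0.15 (limma adjusted p = 0.947), with an SD of 1.65 over the 3 cultures, and 1.10 without SuvER-4146. Ccnd3 changed by -0.13 for ADR 4OHT against native (95% interval -0.58 to 0.32). The fibroblast list mean was 4.60 to 5.21 under ADR 4OHT, 4.94 to 6.19 under ADR and 4.26 to 4.46 in native cultures. The macrophage list mean was 5.99 to 6.33 under ADR 4OHT, 6.01 to 7.44 under ADR and 4.67 to 5.32 in native cultures, and was higher than native in 3 of 3 under both. Of its 14 genes, Lyz2 (5.57) and Mpeg1 (2.88) were called higher for ADR 4OHT against native (limma adjusted p = 0.000844 and 0.00586). Lyz2 (5.38) was also called higher for ADR against native (limma adjusted p = 0.00297). With other samples in the fit, 0 genes of the array were called for ADR 4OHT against native, so neither of its calls held there. For ADR against native the count was then 1. The 18S signal had medians of 8.70 under ADR 4OHT, 8.28 under ADR and 9.81 in native cultures. The part of these markers and of the 18S signal in the changes of the cyclins and kinases was not tested.

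Among the other cell cycle lists in these cultures, 4 genes were called for ADR 4OHT against native, all lower: Cdkn1b (p27, -1.07, limma adjusted p = 0.0476), Fbxo5 (-1.67, 0.0439), Rbl1 (-1.43, 0.0200) and Mybl2 (-1.26, 0.0405). They are named because they are all of the calls in those lists. They were 1 of 7 inhibitors, 1 of 14 genes of cyclin destruction, 1 of 11 pocket protein and E2F genes and 1 of 7 MuvB list genes. Of all genes, 2.95% were called in this comparison. With other samples in the fit, 0 genes of the array were called in it, so none of these 4 calls held there. None of the cell cycle lists had a call for ADR 4OHT against ADR or for ADR against native.

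Ordered by mean level over the 7 groups, Ccne1, Ccne2, Cdk2, Ccna2, Ccnb2 and Cdk1 were all lowest in WT ADR and next lowest in Suv39h1ER ADR 4OHT, the groups that the labels call senescent. Suv39h1- ADR came next above these for each of these 6 genes, and the native groups and Suv39h1ER ADR made up the upper 4. The step between the lowest groups was larger than the larger of their SDs for Ccna2 (1.02) and Ccnb2 (1.00), and not for the other 4 genes. Of the 6 steps between neighbours in the order, 4 lay within the larger SD for Ccna2, 5 for Ccnb2, Cdk1 and Ccne1, and 6 for Ccne2, Cdk2 and the D cyclins. For Ccnd1 and Ccnd2 the 2 highest groups were ADR groups (Suv39h1- ADR and WT ADR for Ccnd1, WT ADR and Suv39h1ER ADR for Ccnd2), and for Ccnd3 the highest was WT native. This order is a description over samples with no test.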

How the data were processed

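The authors deposited 1 table of log2 levels for all probe sets and 47 arrays. The submitters' processing notes name RMA, oligo and R 3.5.0. Whether RMA was run on all arrays at once was not given in the sources used here. Of 45101 probe sets, 34958 carry 1 symbol in the platform annotation, 932 several and 9211 none. Of those with 1 symbol, 34754 had an Entrez number found among RefSeq genes and took the symbol given there. The brightest probe set stood for each of 18194 genes.

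Differences were tested two-sided with limma 3.58.1 in R 4.3.3, over all 47 arrays with the 22 cultures as blocks and 4 treatment terms, or over 19 arrays with no block between genotypes. All p-values were adjusted by Benjamini-Hochberg over all genes, and intervals are those of the fit. The series design text describes matched pairs. As a check of this pairing, deviations from the group means correlated above 0.1 in 10 of 14 WT, 5 of 5 Suv39h1- and 2 of 9 Suv39h1ER pairs of arrays. The fit was also run on simulated data, with normal noise of the same spread in all groups. Its outcome is not given here, and it does not check differences in spread between these groups. Relations between changes used 100000 permutations.

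The genes, lists, motifs and marker sets were chosen with earlier results of these data known. Named are all measured genes of the set and the 3 nearest genes of each by Pearson's r, taken from outside the set. Of each other list, the 3 genes with the smallest p in WT ADR against native are named. Other names come from a count of calls, from a marker list or were chosen after their values were seen. Alternatives covered the block, the probe sets, a filter on dim genes, array scaling, the limma settings, the samples in a fit, alike lymphomas, the fibroblast covariate and leaving out each lymphoma. No filter was set on dim genes, and the number of arrays limits the precision.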

Additional observations from a re-analysis of the deposited data

Results flagged for a closer look

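In untreated Suv39h1- lymphomas, 4936 lay apart from the other 4 at the low end for 3 genes, with levels of 6.43 for Ccnd3, 7.71 for Ccne2 and 9.21 for Cdk1. A test of the farthest value in each group flags about 1 in 20 groups by chance, and 27 groups were tested for these genes. All 3 values come from the same array.

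For 3 results every culture of one group moved one way and every culture of the other moved the opposite way. Ccne1 was lower in all 14 WT lymphomas under ADR and higher in all 3 Suv39h1ER cultures under ADR, and the means differed by -1.31 on the log2 scale. This difference was not tested. Within the Suv39h1ER cultures, the change of Ccne1 under ADR lay above that under ADR 4OHT by 0.95, and that of Ccne2 by 0.91, each with 3 of 3 higher than native under ADR and 3 of 3 lower under ADR 4OHT. Both contrasts use the same native arrays, and the direct comparison of ADR 4OHT with ADR gave limma adjusted p-values of 0.109 and 0.422.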

How the results depend on the processing

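All 9 calls in WT ADR against WT native held when any 1 lymphoma was left out, with all probe sets, with the filter on dim genes, under both array scalings, with trend and robust settings and with other samples in the fit. Without the replicate block Ccnd3 (-0.32, limma adjusted p = 0.148) was lost. No other call of these 9 genes changed without the block in the comparisons that used it. With alike lymphomas averaged 1 of the 9 was called higher, since Ccnd1 was lost (0.50, limma adjusted p = 0.152). With the fibroblast covariate 0 were called higher (Ccnd1 0.82, Ccnd2 0.13), and Ccnd3 and Ccne2 were lost among those lower. The cause was not tested. Of the 9 genes, the count called lower in WT ADR against Suv39h1- ADR was 4 with the filter on dim genes, 5 with arrays centred on their medians, 5 with other samples in the fit, 1 with alike lymphomas averaged (Ccnb2 -1.41, limma adjusted p = 0.0623), and 0 to 4 when a lymphoma was left out, with 0 to 1 called higher. The count for the difference of responses was 1 (Ccna2) with that filter (-1.76, limma adjusted p = 0.0495), which tests fewer genes, and with centring (-1.85, 0.0426), and 0 to 3 when a lymphoma was left out.

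Leaving out 1 lymphoma changed calls of single genes only between genotypes. In WT ADR against Suv39h1- ADR the ranges were -1.81 to -1.43 for Ccna2, -1.67 to -1.30 for Ccnb2, -1.30 to -0.91 for Ccne2, -1.15 to -0.86 for Cdk1 and 0.26 to 0.68 for Ccnd3. For the difference of responses they were -1.97 to -1.40 for Ccna2, -1.93 to -1.34 for Ccnb2 and -0.80 to -0.62 for Cdk2.

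Sign changes of fold changes touched only values that were not called. Ccnd3 in Suv39h1- lymphomas was -0.0022 after quantile normalization and -0.13 to 0.13 without 1 lymphoma. The Ccnd1 difference of responses was -0.0428 with centring, -0.16 with alike lymphomas averaged and -0.10 to 0.21 without 1 lymphoma. Ccnd2 in WT ADR against Suv39h1- ADR was -0.15 with alike lymphomas averaged and -0.18 to 0.73 without 1, and Ccnd1 there was -0.23 to 0.0331. Without 1 lymphoma the native comparison of genotypes gave -0.0295 to 0.16 for Ccna2, -0.69 to 0.59 for Ccnd2 and -0.21 to 0.31 for Ccne1. Without 1 Suv39h1ER culture, ADR 4OHT against ADR gave -0.89 to 0.79 for Ccnd1, -1.34 to 0.26 for Ccnd2, -0.31 to 0.15 for Ccnd3 and -1.02 to 0.0224 for the A and B minus D and E difference, ADR 4OHT against native gave -0.41 to 1.10 for Ccnd1, and ADR against native gave -0.23 to 0.14 for Ccnd3. With macrophage in place of fibroblast markers, a choice made after seeing the data, Pearson's r was 0.262 for Ccnd3 and 0.124 for Ccne1, against -0.187 and -0.654. The number of arrays limits precision, and signal over background was not assessed.

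The count of genes called over the whole array depended more on settings. With all probe sets as features it was 10589 probe sets in WT ADR against WT native, 30 for the difference of responses, 173 for Suv39h1ER ADR against native, 338 for ADR 4OHT against ADR, 988 for the native genotypes and 4399 for the ADR genotypes. Without the block it was 11 in Suv39h1- lymphomas, 13 for the difference of responses, and in Suv39h1ER cultures 267 for ADR 4OHT against native, 2 for ADR against native and 16 for ADR 4OHT against ADR. With the fibroblast covariate it was 2127 in WT lymphomas. With the filter on dim genes it was 0 in Suv39h1- lymphomas, 118 for the difference of responses and 45 for ADR 4OHT against ADR. With centring the difference of responses had 152, and quantile normalization gave 35 for Suv39h1ER ADR against native. With trend and robust settings it was 12 in Suv39h1- lymphomas, 28 for the difference of responses and 7 for ADR 4OHT against ADR. With other samples in the fit it was 0 in Suv39h1- lymphomas, 40 for the difference of responses, 0 for ADR 4OHT against native, 1 for ADR against native, 0 for ADR 4OHT against ADR and 3527 for the ADR genotypes. With alike lymphomas averaged it was 1 in Suv39h1- lymphomas, 0 for the difference of responses, 11 for ADR 4OHT against ADR and 939 for the ADR genotypes. Leaving out 1 lymphoma or culture gave 0 to 12 in Suv39h1- lymphomas, 0 to 258 for the difference of responses, 90 to 326 for ADR 4OHT against native, 4 to 109 for ADR against native, 1 to 56 for ADR 4OHT against ADR, 138 to 316 for the native genotypes and 1227 to 3389 for the ADR genotypes. The cause of these changes was not tested.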
